A study of Mus musculus with 8 samples.

Results

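The 10 chemokine genes Cxcl1, Cxcl5, Cxcl12, Cxcl13, Cxcl14, Ccl2, Ccl7, Ccl8, Ccl9 and Ccl11 were followed across the cell clusters of cultured white preadipocytes and of the adipocytes forming from them. They were chosen by symbol: every entry of the authors' table of cluster markers that carried the symbol of a member was taken, in any cluster. Chemokine genes without an entry were left out, so it was fixed by this choice that all 10 had at least 1 entry. Among the 3903 gene symbols listed, they held 48 of the 13337 entries. Preadipocytes from inguinal white fat of C57BL/6 mice, either wild type (WT) or lacking both Hmgn1 and Hmgn2 (DKO, Hmgn1-/- and Hmgn2-/-), were profiled by droplet single-cell RNA sequencing at day 0 and at day 6 of in vitro browning. There were 2 samples for each of the 4 groups of genotype and day, 8 in all. From day 0 on, the cultures of both genotypes received the same mixture of insulin, dexamethasone, IBMX, T3 and rosiglitazone, followed by insulin and T3 alone. The table pools the cells of all 8 samples into 12 clusters, numbered 0 to 11, and compares each cluster with all other cells. It separates neither samples nor genotypes nor days, so no DKO and WT values, no day 0 and day 6 values and no replicate error can be given for any gene below, and the read depth and cell number behind each value are unknown.

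Chemokines are small secreted proteins that attract leukocytes by binding G protein-coupled receptors on their surface. Members of the CXC class are named for the spacing of their first cysteines. They include the neutrophil attractants Cxcl1 and Cxcl5 and the largely constitutive Cxcl12, Cxcl13 and Cxcl14. In the CC class, Ccl2 and Ccl7 mainly attract monocytes and Ccl11 attracts eosinophils. In adipose tissue, stromal cells and preadipocytes are a known source of several of these ligands, and Ccl2 is known for recruiting macrophages to the fat of obese animals.

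In these cells 5 of the chemokine genes divided along the clusters in a shared way. Cxcl12, Cxcl14, Ccl7, Ccl8 and Ccl2 had log2 fold changes above 0 in cluster 1 (0.36 to 2.55, called higher for Cxcl12, Cxcl14 and Ccl7) and below 0 in clusters 4, 6, 8 and 11, where all 5 were called lower in clusters 4 and 11. In cluster 4 this was the rule for most genes, with 71% of all its entries called lower and 97.9% detected in a smaller share of its cells than outside it, and in cluster 11 the share called lower was 33.8%. In clusters 4, 6, 8 and 11 the adipocyte gene Fabp4, a fatty acid carrier, was above 0. Cxcl13 had its largest fold change in cluster 8 and its lowest in cluster 1, but none of its 4 entries was called and it had no entry in clusters 4, 6 and 11. Each statement here describes pooled cells. Because the clusters were themselves drawn from the expression of these cells, a cluster set against the remaining cells is a description and no test.

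An entry was called higher or lower when its deposited log2 fold change was at least 0.25 in size and its deposited adjusted p, computed by the authors over single cells, was below 0.05. Of the 48 entries, 9 were called higher, which is 18.8% beside 27.7% of all entries in the table. A further 16 were called lower, which is 33.3% beside 28.5% of all entries. The remaining 23 entries passed the authors' minimums for listing but were not called. The median log2 fold change was -0.52 over the chemokine entries and -0.26 over all entries. The called entries belonged to 6 of the 10 genes: Cxcl1, Cxcl12, Cxcl14, Ccl2, Ccl7 and Ccl8. Cxcl5, Cxcl13, Ccl9 and Ccl11 had no called entry, and their values are given below as levels only.

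**Figure D1:**
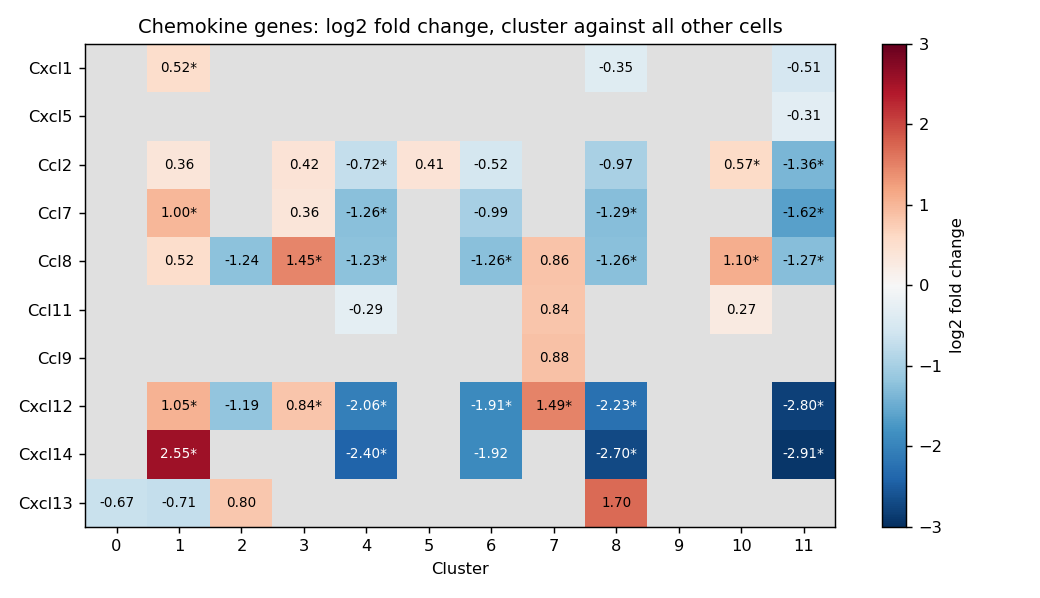
Deposited log2 fold change of each chemokine gene (rows) in each cluster (columns) against all other cells, with an asterisk where the entry was called and grey where the table has no entry. Clusters 0, 4, 6 and 11 hold only values below 0, clusters 3, 5, 7 and 10 only values above 0, and Cxcl13 is the gene above 0 in cluster 8.

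The genes lie in a few neighbourhoods of the mouse genome (GRCm38, GENCODE annotation), and all 10 are annotated as protein coding. Ccl2 (chr11:82035571-82037453), Ccl7 (chr11:82045712-82047525), Ccl11 (chr11:82057823-82062955) and Ccl8 (chr11:82115185-82116799) lie in this order on the plus strand within 81.2 kb. The gap from Ccl2 to Ccl7 is 8.26 kb, that from Ccl7 to Ccl11 is 10.3 kb and that from Ccl11 to Ccl8 is 52.2 kb. A further chemokine gene that is not a member, Ccl12 (chr11:82101845-82103400, plus strand), lies in the last of these gaps. Ccl9 lies further along the same chromosome on the minus strand (chr11:83572919-83578636). Cxcl5 (chr5:90759360-90761624) and Cxcl1 (chr5:90891241-90893115) are 129.6 kb apart, with Cxcl13 on the same chromosome (chr5:95956951-95961068). Cxcl12 (chr6:117168535-117181367) and Cxcl14 (chr13:56288643-56296551, minus strand) stand alone.

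Promoter sequences from RefSeq (GRCm38.p6) matched 6 of the 10 genes: Cxcl1, Cxcl12, Cxcl13, Cxcl14, Ccl8 and Ccl9. Bases before the RefSeq start, without any that lie inside the GENCODE gene, are shown for 4 genes. Their largest fold changes lay in different clusters: Cxcl1 in cluster 1, Ccl8 in cluster 3, Cxcl12 in cluster 7 and Cxcl13 in cluster 8. Their patterns still overlapped, since Cxcl12 and Ccl8 had the same sign in all 8 clusters that listed both. By detection, Cxcl12 was highest in cluster 1. The RefSeq starts are base 90891245 for Cxcl1, 82115185 for Ccl8, 117168535 for Cxcl12 and 95956939 for Cxcl13, and those of Cxcl1 and Cxcl13 differ from the GENCODE starts given above. All are read from the plus strand, 5′ to 3′, and capitals mark matches to the motifs searched. The windows are chr5:90891095-90891240 for Cxcl1, chr11:82115035-82115184 for Ccl8, chr6:117168385-117168534 for Cxcl12 and chr5:95956789-95956938 for Cxcl13.
Cxcl1: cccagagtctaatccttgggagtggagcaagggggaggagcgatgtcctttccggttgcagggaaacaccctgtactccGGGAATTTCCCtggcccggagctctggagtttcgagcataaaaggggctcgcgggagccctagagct
Ccl8: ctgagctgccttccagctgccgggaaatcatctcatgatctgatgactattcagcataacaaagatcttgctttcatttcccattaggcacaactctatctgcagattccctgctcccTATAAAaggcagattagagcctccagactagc
Cxcl12: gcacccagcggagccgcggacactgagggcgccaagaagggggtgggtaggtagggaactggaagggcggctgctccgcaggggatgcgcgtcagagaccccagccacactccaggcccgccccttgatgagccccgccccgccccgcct
Cxcl13: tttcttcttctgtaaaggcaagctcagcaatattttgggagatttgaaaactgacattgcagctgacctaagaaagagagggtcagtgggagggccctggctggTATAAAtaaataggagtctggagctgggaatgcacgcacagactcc

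The 250 bases before the RefSeq start, from which all positions here are counted, were searched on both strands for the kappa B consensus, the AP-1 site TGANTCA, the TATA box TATAAA, the STAT site TTCNNNGAA and the C/EBP site TTGCNNAA. The Cxcl1 capitals are a pair of overlapping kappa B matches, 1 on each strand, that lie 71 to 61 bases before the RefSeq start. A kappa B match was found for 2 of the 6 genes, Cxcl1 and Ccl9, and in 7.25% of the 32851 promoters of the table. The TATA box was found for 3, Ccl8, Cxcl13 and Ccl9, and in 12.4% of all promoters, at 32 to 27 bases before the RefSeq start in Ccl8 and at 46 to 41 in Cxcl13. The AP-1 site was found for Ccl9 alone (6.75% of all promoters), the STAT site for Cxcl14 alone (7.02%) and the C/EBP site for Cxcl13 alone (9.56%), outside the stretch shown. No match to these letters was found before the start of Cxcl12, whose 250 bases were 64.4% G and C, beside 42% in Cxcl13 and 44.8% in Ccl8. These matches describe letters in a window and not bound sites.

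Detection is the percent of cells with at least 1 UMI (a counted molecule) of a gene. The share of each cluster among all cells was solved from the detection inside and outside the clusters, and the detection over all cells was then computed for each gene. Cxcl12 was the most widely detected chemokine gene at 76.9% of all cells, followed by Ccl7 at 51.8%, Cxcl14 at 46.3%, Ccl2 at 40.3%, Ccl8 at 32.2% and Cxcl1 at 25.6%. The other genes were detected in few cells, with 11.6% for Cxcl5, 10.3% for Ccl11, 8.76% for Cxcl13 and 6.66% for Ccl9. The values computed from different entries of 1 gene differed by 0.0851 percentage points at most, in Ccl8, and neighbours in this order were further apart than that. For Cxcl5 and Ccl9, with 1 entry each, this check could not be made. These differences in detection between genes depend on how deeply each cell was sequenced and are not levels per length. Free RNA in droplets can give a UMI in a cell that does not express a gene, and no cell type that should lack these ligands is in the table. The lowest detection in a listed cluster was 0.2% for Cxcl13, 1.3% for Ccl8, 5.2% for Ccl7 and 16.2% for Cxcl12. Those of Ccl8, Ccl7 and Cxcl12 were in cluster 4, where 97.9% of all entries had lower detection than outside. Outside cluster 4 the lowest were 3.4%, 8.8% and 33.6%, all in cluster 11.

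**Figure D2:**
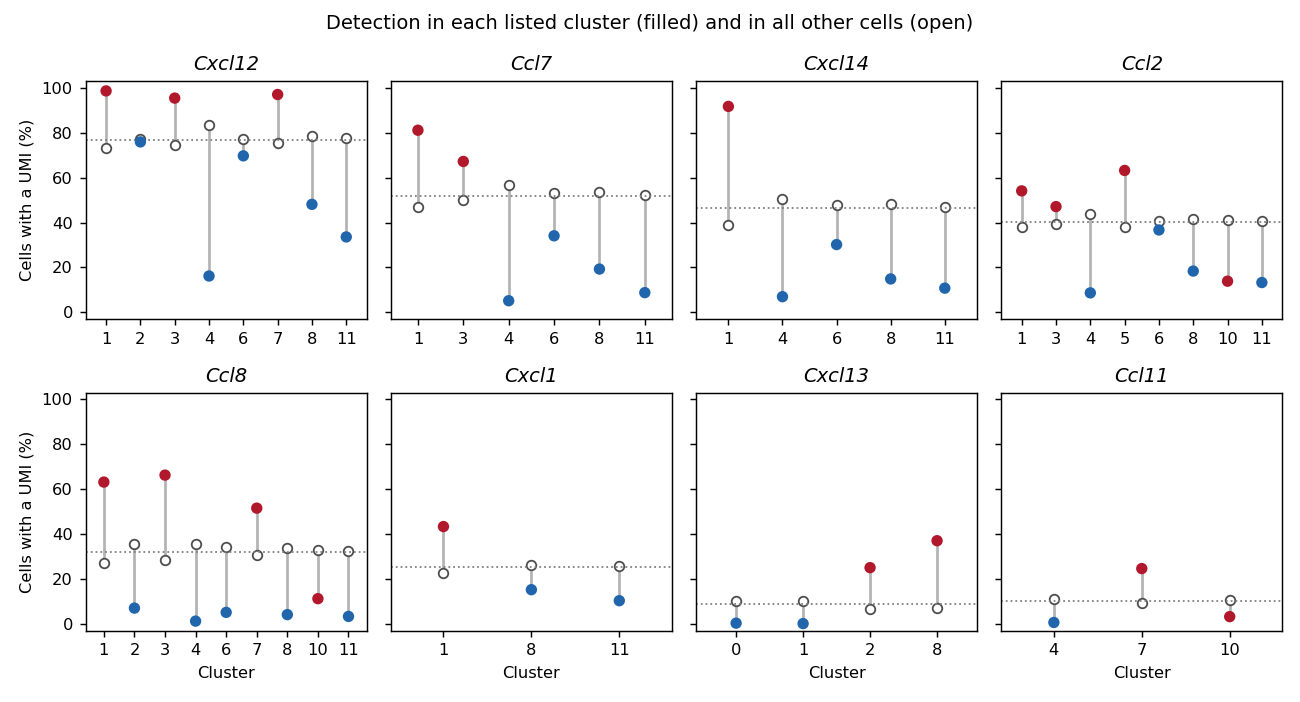
Percent of cells with a UMI of 8 chemokine genes in each listed cluster (filled, red where the log2 fold change is above 0 and blue where it is below 0) and in all other cells (open), with the detection over all cells as a dotted line. Cxcl12 spans 16.2% to 98.6% of the cells of a cluster, and in cluster 10 Ccl2, Ccl8 and Ccl11 have red points under the open ones.

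Cxcl12, the ligand of Cxcr4 that retains blood progenitors and lymphocytes in stroma, was listed in 8 clusters and called in 7 of them. It was called higher in cluster 7 (log2 fold change 1.49, detected in 97% of its cells and in 75.4% of all others), in cluster 1 (1.05, 98.6% and 73.3%) and in cluster 3 (0.84, 95.4% and 74.7%). It was called lower in cluster 11 (-2.80, 33.6% and 77.5%), in cluster 8 (-2.23, 48.1% and 78.7%), in cluster 4 (-2.06, 16.2% and 83.3%) and in cluster 6 (-1.91, 69.7% and 77.4%). In clusters 2 and 6 the detection stayed close to that of other cells while the fold change was well below 0. In cluster 2, 75.9% of the cells had a UMI of Cxcl12, beside 77% of all other cells, at a log2 fold change of -1.19 that was not called. Clusters 0, 5, 9 and 10, with 32.2% of all cells, had no entry, and the mean detection over their cells came to 84.8%.

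A fold change in the table compares mean normalized counts per 10000 after 1 is added to each mean, and so understates the change of a low gene. Since a mean cannot be below 0, the lowest entry of a gene sets a least level for its other entries. For Cxcl12, the mean in cluster 7 was at least 16.2 counts per 10000, that in cluster 1 at least 11.3 and that in cluster 3 at least 10.4. On this scale, log2(mean + 1), cluster 7 stood 4.11 above cluster 11, the lowest, with cluster 8 at 0.62, cluster 4 at 0.83, cluster 6 at 0.95 and cluster 2 at 1.69 above it. No spread over samples is available by which neighbours in this order could be told apart.

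Cxcl14, a chemokine of skin and stromal tissues that brown fat also secretes, had the largest positive fold change of the 10 genes. In cluster 1 its log2 fold change was 2.55, or 5.85-fold, with detection in 91.7% of the cells and in 38.9% of all others. It was called lower in cluster 11 (-2.91, 10.8% and 46.9%), in cluster 8 (-2.70, 14.9% and 48.3%) and in cluster 4 (-2.40, 7% and 50.5%). The value in cluster 6 (-1.92, 30.2% and 47.6%) was not called. Cluster 1 thus stood apart from all 4 of these clusters, at 4.69 above cluster 11 on the log2(mean + 1) scale and at a mean of at least 24.8 counts per 10000. Cluster 1 held 14.1% of all cells and 28% of the cells with a UMI of Cxcl14. The 7 clusters with no entry (61.3% of all cells) had a mean detection of 48%, and how much of it free RNA gave was not tested.

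Ccl7, a monocyte attractant, was called higher in cluster 1 alone (1.00, 81.1% and 46.9%). It was called lower in cluster 11 (-1.62, 8.8% and 52.4%), in cluster 8 (-1.29, 19.3% and 53.8%) and in cluster 4 (-1.26, 5.2% and 56.7%). Its other entries, in cluster 3 (0.36, 67.2% and 50%) and in cluster 6 (-0.99, 34.1% and 53.2%), were not called. Clusters 4, 6, 8 and 11 together held 24.5% of all cells and 8.34% of the cells with a UMI of Ccl7. The same clusters held 8.57% of the cells with a UMI of Cxcl14 and 13.2% of those with a UMI of Cxcl12.

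Ccl2, the ligand of the monocyte receptor Ccr2 and a neighbour of Ccl7, had smaller fold changes. It was called lower in cluster 11 (-1.36, 13.3% and 40.7%) and in cluster 4 (-0.72, 8.7% and 43.7%), and was called higher in cluster 10 (0.57, 13.9% and 41.2%). The values in clusters 1 (0.36, 54.1% and 38.1%), 3 (0.42, 47.1% and 39.5%), 5 (0.41, 63.2% and 38.1%), 6 (-0.52, 36.7% and 40.6%) and 8 (-0.97, 18.4% and 41.7%) were not called. Among its listed clusters, Ccl2 was detected in the largest share of cells in cluster 5, where no other chemokine gene had an entry. Its values in clusters 0, 2, 7 and 9 are unknown, with a mean detection of 43.5% over their cells. In the clusters that listed both genes, the fold change of Ccl7 was larger in size than that of Ccl2 in clusters 1, 4, 6, 8 and 11 and smaller in cluster 3.

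Ccl8, a further CC class gene of the same neighbourhood, was listed in 9 clusters, the most of the 10 genes. It was called higher in cluster 3 (1.45, 66.3% and 28.3%) and in cluster 10 (1.10, 11.3% and 32.9%). The values in cluster 7 (0.86, 51.6% and 30.9%) and in cluster 1 (0.52, 63.2% and 27.2%) were not called. It was called lower in clusters 4 (-1.23, 1.3% and 35.5%), 6 (-1.26, 5.2% and 34.4%), 8 (-1.26, 4.2% and 34%) and 11 (-1.27, 3.4% and 32.7%), and its value in cluster 2 (-1.24, 7.1% and 35.7%) was not called. These 5 fold changes lay within 0.04 of each other. Ccl8 was detected in only 1.3% to 7.1% of these cells, and adding 1 to each mean limits how far a fold change can fall. Their closeness is therefore no measure of a shared level. On the log2(mean + 1) scale, clusters 2, 4, 6 and 8 stood only 0.04 to 0.12 above cluster 11, whereas cluster 3 stood 2.47 above it. Clusters 1, 3 and 7 held 31.2% of all cells and 59.6% of the cells with a UMI of Ccl8, and clusters 2, 4, 6, 8 and 11, with 36.6% of all cells, held 5.19%. The 3 clusters with no entry, 0, 5 and 9, had a mean detection of 37.9%.

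Cluster 1 had the larger share of Ccl8-detecting cells but not the larger fold change. Its cells detected Ccl8 nearly as often as those of cluster 3 (63.2% and 66.3%), while its level stood 1.69 above that of cluster 11 on the log2(mean + 1) scale, against 2.47 for cluster 3. The order was the reverse for Cxcl12 and Ccl7. Cxcl12 stood at 3.62 above its lowest entry in cluster 1 and at 3.51 in cluster 3, and Ccl7 stood at 2.41 and 1.92.

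Ccl11 (eotaxin), which lies between Ccl7 and Ccl8, was listed in 3 clusters, each of which also listed Ccl8 with the same sign. Its entries, none of them called, were in cluster 7 (0.84, 24.7% and 9.3%), cluster 10 (0.27, 3.3% and 10.5%) and cluster 4 (-0.29, 0.7% and 11.3%). It had no entry in cluster 1 or cluster 3. Its detection over all cells was 10.3%, near the 10.1% that was the lowest larger detection of any entry. The missing entries therefore do not show a different pattern. Ccl9, a ligand of Ccr1, was listed in cluster 7 alone (0.88, 14.6% and 6.1%) and was not called there. Outside cluster 7 both Ccl9 and Ccl11 were under that 10.1%, so only their detection inside cluster 7 let them be listed there. Cluster 7 held 6.60% of all cells, 15.8% of the cells with a UMI of Ccl11 and 14.5% of those with a UMI of Ccl9.

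Of the neutrophil attractants, Cxcl1 was called higher in cluster 1 (0.52, 43.4% and 22.7%), and its values in clusters 8 (-0.35, 15.3% and 26.2%) and 11 (-0.51, 10.4% and 25.8%) were not called. Cluster 1 held 23.9% of the cells with a UMI of Cxcl1, and the 9 clusters with no entry had a mean detection of 23.5%. Cxcl5 had 1 entry, in cluster 11 (-0.31, 1.8% and 11.8%), which was not called. The low count of entries for Cxcl5, Ccl9 and Ccl11 is no measure of how evenly they were expressed.

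Cxcl13, the ligand of Cxcr5 that gathers B cells in lymphoid follicles, had its values above 0 in clusters 2 and 8, where Cxcl12 and Ccl8 were below 0. Its log2 fold change was 1.70 in cluster 8 (37.1% and 7%) and 0.80 in cluster 2 (25.1% and 6.5%), and it was -0.67 in cluster 0 (0.4% and 10.1%) and -0.71 in cluster 1 (0.2% and 10.2%). None of the 4 entries was called by the authors' adjusted p. Outside clusters 2 and 8 Cxcl13 was under 10.1%, the smallest larger detection of any entry. Only its detection inside these 2 clusters let it be listed there. Clusters 2 and 8 held 18% of all cells and 59.8% of the cells with a UMI of Cxcl13, and clusters 0 and 1, with 28.5% of all cells, held 0.98%. The other 8 clusters had a mean detection of 6.43%. Cxcl12 and Ccl8 stood at -1.19 and -1.24 in cluster 2 and at -2.23 and -1.26 in cluster 8.

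**Figure D3:**
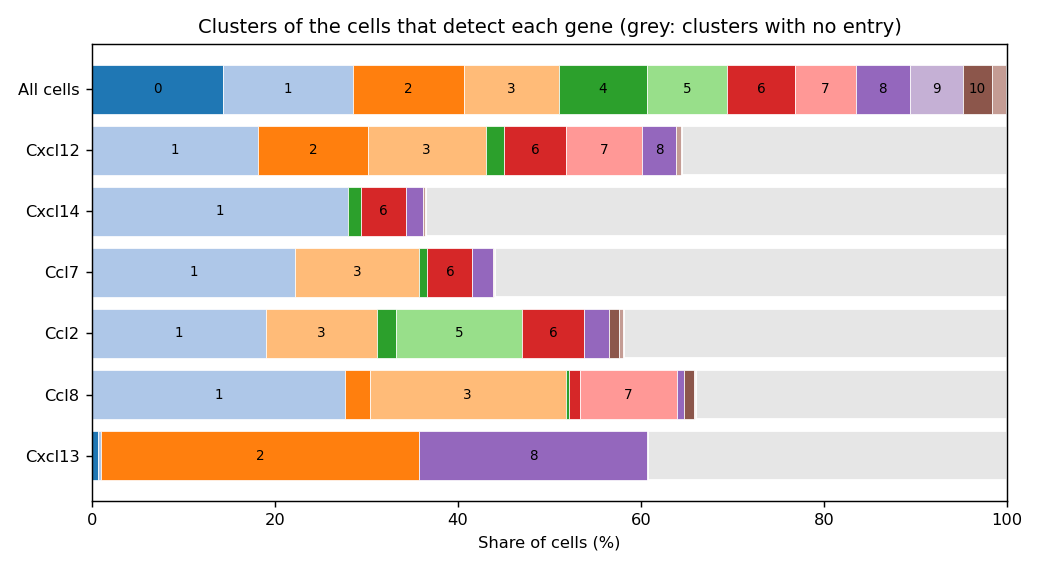
Share of all cells (top bar) and of the cells with a UMI of 6 chemokine genes that lies in each cluster, in percent, with clusters numbered in the bars and clusters with no entry for that gene in grey. Cluster 1 holds 14.1% of all cells, 28% of Cxcl14-detecting and 27.7% of Ccl8-detecting cells, and clusters 2 and 8 hold most of the Cxcl13-detecting cells.

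Seen by cluster, cluster 1 listed 7 of the 10 genes. Of these, 6 were above 0 and 4 were called higher (Cxcl14, Cxcl12, Ccl7 and Cxcl1), beside 23.5% of all entries of that cluster called higher, and Cxcl13 was below 0. Their median log2 fold change was 0.52, beside 0.29 over all entries of the cluster. Cluster 3 listed 4 genes, all above 0, with Ccl8 and Cxcl12 called higher, beside 14.3% of all its entries. Cluster 7 listed 4, all above 0, with Cxcl12 called higher, beside 17.8% of its entries. Of these 4, Ccl9 and Ccl11 were detected in 6.1% and 9.3% of the cells outside cluster 7. Both values are under 10.1%, the smallest larger detection of any entry. Only high detection inside let them be listed there, so their signs in cluster 7 are no support for a pattern. Cluster 9 listed none, cluster 0 listed Cxcl13 alone and cluster 5 listed Ccl2 alone.

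On the low side, cluster 11, the smallest at 1.5% of all cells, listed 7 genes, all below 0, of which 5 were called lower, beside 33.8% of its entries. Their median was -1.36, beside -0.30 over all entries of the cluster. In cluster 8, 6 of 7 genes were below 0 and 4 were called lower, beside 22.9% of its entries, and the median was -1.26 beside -0.37. In cluster 4 all 6 genes were below 0 and 5 were called lower, beside 71% of its entries, so a low value there was the rule for most genes. Cluster 6 listed 5 genes, all below 0, with Cxcl12 and Ccl8 called lower, beside 22.7% of its entries.

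Clusters 4 and 10 stood apart in detection. For 97.9% of the entries of cluster 4 the detection was lower inside the cluster than outside, with a median detection of 10.8% inside and 63% outside. In cluster 10 the share was 99.9%, with medians of 8.1% and 62.4%. All 3 chemokine entries of cluster 10, Ccl8, Ccl2 and Ccl11, had a fold change above 0 with detection below that of other cells. These were the only chemokine entries in which fold change and detection pointed opposite ways. Ccl8 and Ccl2 were called higher there, beside 31.6% of all its entries. Without clusters 4 and 10, 7 entries were called higher and 11 lower. The part of the low detection in these values was not tested.

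**Figure D4:**
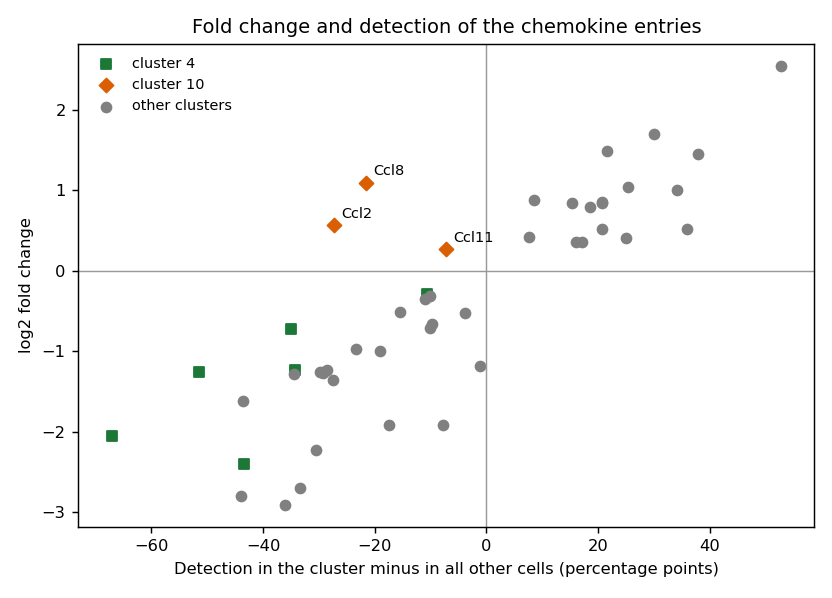
Log2 fold change of the 48 chemokine entries against the difference of detection, in the cluster minus in all other cells, in percentage points. The 3 entries of cluster 10 (orange diamonds) are alone in the upper left, and those of cluster 4 (green squares) lie at the lower left.

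Across the 10 pairs of chemokine genes that shared at least 5 listed clusters, all among Cxcl12, Cxcl14, Ccl2, Ccl7 and Ccl8, the Pearson correlation of log2 fold changes averaged 0.96 (SD 0.04 over pairs). The lowest was 0.89, for Ccl7 and Ccl8 over 6 clusters, and the highest was 1.00, for Cxcl14 and Ccl7 over 5. Small fold changes are not listed, so each pair was compared over high and low values with the middle left out, which can raise r. For every pair with Cxcl14, 1 positive value (cluster 1) stood against 4 negative ones, so r depended strongly on cluster 1. No background over other pairs of genes was computed, so the mean of 0.96 is not shown to be particular to chemokine genes. The points of each pair come from the same pooled cells, and each cluster is part of the cells that another is set against. These values therefore describe the table and carry no p. Cxcl13 shared too few clusters with the others to be included.

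The genes with the most similar pattern were sought for the members with at least 8 listed clusters, among genes that shared at least 8 of them. For Cxcl12, with 48 candidates, these were Mfap2 (r = 0.99), Cyba (0.99) and Srpx2 (0.98). For Ccl8, with 109 candidates, they were Myl6 (1.00), Myl12a (0.99) and Lbh (0.98), and for Ccl2, with 42 candidates, they were Cyba (0.98), Serpinb6a (0.97) and Mfap5 (0.97). Each r is over 8 clusters and uses listed entries alone, so small fold changes are left out here too. Mfap2 and Mfap5 encode microfibril proteins of the matrix, and Myl6 and Myl12a encode myosin light chains.

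The chemokine genes were set beside Fabp4, which had an entry in every cluster, a choice made after the values were seen. Fabp4 was above 0 in clusters 4, 6, 8 and 11 alone, at 3.08, 0.43, 1.25 and 3.56. Every entry of Ccl2, Ccl7 and Cxcl14 had the opposite sign to Fabp4 in its cluster, as had 7 of 8 for Cxcl12 and 8 of 9 for Ccl8. Cluster 2, where Fabp4 stood at -0.88 with detection in 99.6% of the cells, was the exception for both Cxcl12 and Ccl8. The Pearson correlation with Fabp4 was -0.86 for Cxcl12 over 8 clusters, -0.83 for Ccl8 over 9 and -0.95 for Ccl2 over 8. Only clusters that listed the chemokine gene entered, so its small fold changes are left out. For Cxcl13, 1 of 4 entries had the opposite sign.

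**Figure D5:**
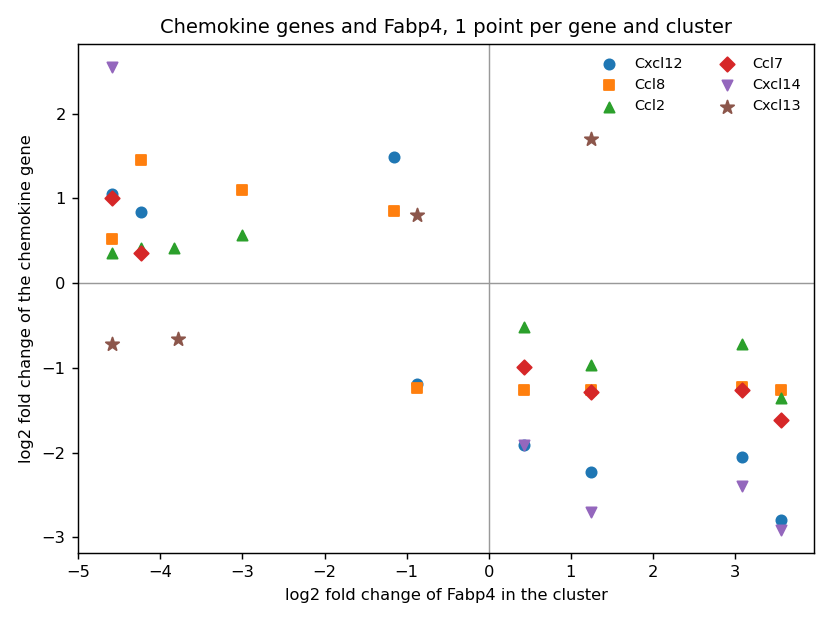
Log2 fold change of 6 chemokine genes against that of Fabp4 in the same cluster, each against all other cells, with 1 point per gene and cluster. Entries of Cxcl12, Cxcl14, Ccl2, Ccl7 and Ccl8 fill the upper left and lower right, apart from cluster 2, and Cxcl13 (stars) is the one gene in the upper right.

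Marker lists were set beside these values. Of the 10 adipocyte genes, 9 were listed and all 9 were above 0 in clusters 4 and 11, with 7 called higher in cluster 4 and 9 in cluster 11, beside 22.9% and 35.1% of all entries there. In cluster 8, 6 of 6 listed were above 0 and 5 were called higher (14.5% of all entries), and in cluster 6, 3 of 4 were above 0 and 3 were called higher (35.7%). Preadipocyte markers, of which 6 of 12 were listed, were called lower in these clusters in 6 of 6 entries in clusters 4 and 11, 4 of 5 in cluster 8 and 3 of 4 in cluster 6, beside 71%, 33.8%, 22.9% and 22.7% of all entries of clusters 4, 11, 8 and 6. In cluster 1, all 4 listed preadipocyte entries were above 0 and 3 were called higher, beside 23.5% of all its entries. All 3 listed in cluster 3 and all 3 in cluster 7 were above 0 too. So were 3 of 4 in cluster 0, where Cxcl13 was the only chemokine entry and was below 0. Cluster 2 had 1 of 4 preadipocyte and none of 4 adipocyte entries above 0. Among other cell types, none of 16 immune and none of 6 glial markers was listed, 1 of 8 endothelial markers was (Egfl7, 0.27 in cluster 6), 1 of 6 mesothelial (Krt19, not called) and 1 of 6 mural (Pdgfrb, 0.57 in cluster 1). The authors had removed immune, glial and endothelial cells, and a marker with no entry has no known level here.

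Other genes of chemokine signalling were rarely listed. Ligands with no entry had been left out of the members, so for ligands this followed from how the members were chosen. Of 29 further chemokine ligands, only Cxcl16, a membrane-bound ligand of Cxcr6, had entries: it was called higher in cluster 1 (0.34, 40.5% and 15.4%) and lower in cluster 4 (-0.27, 0.5% and 20.9%), and stood at -0.28 in cluster 11 (2.7% and 19.2%). Of 23 receptors only Ackr3, the scavenging receptor of Cxcl12, was listed, in cluster 2 (0.50, 40.5% and 12.2%), where it was not called. Cluster 2 was also where Cxcl12 itself stood at -1.19. The classical receptors of the members, such as Cxcr4, Cxcr2 and Ccr2, had no entry.

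Of 20 genes whose proteins cut or bind chemokines, 14 were listed. Of their 71 entries, 10 were called higher and 26 lower, beside 27.7% and 28.5% of all entries in the table. All 5 entries of this list in cluster 1 were above 0 and 4 were called higher, beside 23.5% of all its entries, and all 9 in cluster 4 and 7 of 12 in cluster 11 were called lower, beside 71% and 33.8% of all entries of these clusters. Mmp3 (stromelysin 1), which is also on the preadipocyte list, was called higher in cluster 1 (2.26) and lower in cluster 8 (-2.37). Mmp2, a gelatinase that can cut Cxcl12 and Ccl7, was called higher in cluster 3 (1.22, 95.8% and 67.9%). The protease Ctsk was called higher there too (1.21, 88.5% and 55.3%), and both shared cluster 3 with the largest fold change of Ccl8.

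The NF-kB pathway, known to induce Cxcl1, Ccl2 and Ccl7 on inflammatory stimulation, was represented by 13 listed genes out of 34. Of their 66 entries, 13 were called higher and 17 lower, beside 27.7% and 28.5% of all entries in the table. In cluster 1, 3 of 6 entries were above 0 and 2 were called higher, beside 23.5% of all its entries. In cluster 8, 3 of 9 were above 0 and 1 was called higher, beside 14.5%. Of the 13 entries of this list in cluster 11, 3 were above 0. There 2 were called higher and 5 lower, beside 35.1% and 33.8% of all entries of that cluster. The inhibitor Nfkbia, itself induced by NF-kB, was among the few called higher in cluster 8 (0.73, 82.4% and 50.8%) and in cluster 11 (0.43, 89.6% and 52.1%). Ccl7 and Ccl8 were called lower in both clusters. The acute phase gene Saa3 stood at 1.36 in cluster 8 and 0.96 in cluster 2 and at -0.78 in cluster 1 and -1.85 in cluster 0, which are the signs of Cxcl13 in these 4 clusters; of these, the value in cluster 0 was called. The macrophage growth factor Csf1 stood at -0.86 in cluster 8 and was not called there.

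Interferon response genes were listed for 10 of 20. Of their 59 entries, 10 were called higher and 20 lower, beside 27.7% and 28.5% of all entries in the table. In cluster 7, all 6 entries were above 0 and 2 were called higher, beside 17.8% of its entries. These were B2m (0.97) and H2-D1 (0.92), which encode parts of MHC class I. The sign was not particular to cluster 7. All 3 entries of this list in cluster 0, all 4 in cluster 1 and all 3 in cluster 3 were above 0 too. Every entry in clusters 4, 5, 6 and 8 was below 0. In cluster 10, all 4 were called higher, beside 31.6% of its entries and again at low detection. Bst2 (tetherin) stood at -0.95 in cluster 8 and was not called there. Immediate early genes, which cell dissociation is known to induce, had 4 entries called higher and 17 lower out of 55, beside 27.7% and 28.5% of all entries. All 4 called higher were in cluster 1, where all 9 listed were above 0, beside 23.5% of its entries called higher. All 6 listed in cluster 7 and all 2 in cluster 3 were above 0 as well, with none called. Fos was at 1.03 (94.2% and 63.8%) in cluster 1. Ier3 was called lower in cluster 8 (-0.97), and Egr1 was called lower in cluster 10 (-0.63). The part of these genes in the chemokine values of clusters 1, 3 and 7 was not tested.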

How the data were processed

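Per the study's methods, the authors prepared 8 captures with 10x 3′ chemistry, mapped reads to mm10 with Cell Ranger 6.0.0, equalized read depth, log-normalized cells in Seurat to a total of 10000, took out cells of immune, glial or endothelial type and compared each cluster with all other cells by MAST. Removal of doublets is not described, and none could be looked for here. The authors deposited, for each entry, a log2 fold change, 2 detection values (the fraction of cells with the gene inside and outside the cluster, printed here as percents), a p-value and an adjusted p-value. The smallest listed log2 fold change was 0.25 in size, and the larger detection was never under 10.1%, so a missing entry is not a 0. The deposited p-values are the authors' own comparison, treat cells as replicates and were used only to call entries, and the deposited fold changes are printed as such. Columns of single samples left unused numbered 0. Depth per sample is unknown from the table.

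Cluster shares were solved by least squares from the detection of the 10 genes listed in all 12 clusters, so that a gene's share-weighted detection is the same from each cluster. The shares summed to 99.9%. Detection over all cells agreed within 0.2 percentage points for all 2687 genes listed in at least 2 clusters, and with a pseudocount of 1 the share-weighted means of the 10 genes summed to 0.997 to 1.00 of the mean of all cells. The solving was tested on simulated data. The detection in clusters with no entry is the remainder. Symbols turned into dates (7, in 35 entries) were left out of work per gene. The work used Python 3.11.15 (matplotlib 3.10.9, scipy 1.17.1, pandas 2.3.3, numpy 2.4.6).

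The members, the lists and the rules were chosen with earlier results of these data known. Named genes were the members, every listed further ligand and receptor, up to 3 genes per pathway list with the largest absolute log2 fold change in the clusters that lead a member, and the 3 genes most like a member with at least 8 entries. Markers of cell types, Fabp4 and the motifs were chosen after values were seen.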

Additional observations from a re-analysis of the deposited data

How the results depend on the processing

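All counts of called entries stayed within 1.5 times the main ones. The 9 entries called higher became 9 and 6 at a minimum log2 fold change of 0.5 and 1, 7 at an adjusted p below 0.01, 7 when detection had to point the same way and 7 without clusters 4 and 10. The 16 called lower became 16, 15, 15, 16 and 11 in the same order. The cluster with the largest value stayed the same for 7 of 9 genes when it was chosen by detection or by the difference of detection. It moved from 7 to 1 for Cxcl12 and from 10 to 5 for Ccl2. With cluster shares solved from all genes listed in at least 2 clusters, detection over all cells moved by at most 0.0062 percentage points and the share of detecting cells by at most 0.0864. The mean correlation between chemokine genes was 0.96, and 0.95 by rank, 0.94 from differences of detection and 0.95 without clusters 4 and 10, the last chosen after the data were seen. All of these settings used listed entries alone, so none shows what the missing small fold changes would do to the correlation. The genes most like a member depended on the measure, since 3 of 9 remained when the difference of detection was used. No paired analysis was possible because all samples are pooled, and for the same reason no sample could be left out. The depth of sequencing and the number of cells limit every detection value by an unknown amount.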
